A study of Mus musculus with 18 samples.

Results

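A set of 10 regulators of mitochondrial biogenesis was followed through the expansion and early differentiation of mouse muscle stem cells (MuSCs) that carried heterozygous mutations modelling myotonic dystrophy type 1 (DM1). The genes were chosen by symbol: the coactivators Ppargc1a, Ppargc1b and Perm1, the estrogen-related receptors Esrra, Esrrb and Esrrg, the fatty acid receptors Ppara and Ppard, the transcription factor Nrf1 and the mitochondrial transcription factor Tfam. All 10 were found among the 20612 genes with 1 row used each, and 9 of the 10 were among the 11890 genes that passed a filter on low values (at least 1 RPKM in at least 2 libraries). Ppara was below that filter. RPKM, the unit of all levels given here, is the number of reads divided by transcript length and by library depth.

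Bulk RNA sequencing covered 18 libraries in 9 groups of 2, with 3 genotypes and 3 days. TKO cells (label DSM_TKO) had 1 mutant copy each of Dmpk, Six5 and Mbnl1, the last lacking exon 3. QKO cells (label DSMD_QKO) carried a heterozygous Dmwd mutation as well. WT cells carried none of these. All were labelled C57BL/6 and came from 4-month-old semi-cloned mice, made by injecting haploid embryonic stem cells into B6D2F1 oocytes. Cells of every genotype, WT included, thus also carried deletions of the H19 and IG imprinting control regions from the haploid line. Day 0 was expanding MuSCs in T cell conditional medium, and days 1 and 2 were the same kind of cells placed in low-serum differentiation medium, which the labels call fiber. The sources used here do not state whether the 2 libraries of a group came from separate animals or cultures, so that p-values measure the spread between these libraries only, which may be technical.

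PGC-1α, made from Ppargc1a, and its relative PGC-1β, made from Ppargc1b, bind no DNA themselves. They dock on nuclear receptors such as the estrogen-related receptors (ERRs) and the peroxisome proliferator-activated receptors (PPARs), and on NRF1, and switch on nuclear genes for respiration and fatty acid oxidation. One such gene is Tfam, whose protein packages mitochondrial DNA and starts its transcription. In muscle this network is known for raising oxidative capacity as fibers form and after endurance exercise, and Perm1 is a muscle protein induced by PGC-1 and ERR proteins.

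Promoters from 250 bases before to 50 bases after the annotated start (RefSeq, GRCm38.p6) were matched by symbol for 9 of the 10 regulators, 14 promoters in all. They were searched on both strands for GCGCATGC (core of the NRF1 site), CCGGAAGT (GABP, an ETS factor), TCAAGGTCA (ERR) and its shorter form AAGGTCA, which lies within it, CAGCTG (an E box of myogenic factors), TGACGTCA (CRE), and TATTTATA and TAAAAATA (MEF2). A match is a description of letters, not of binding. Only promoters with a match were taken for printing, and not all of these are printed. The 4 promoters below belong to regulators called between days in every genotype or in WT cells: Tfam on chr10:71237995-71238294 (minus strand), the second of the Nrf1 starts on chr6:30076071-30076370 (plus strand), Perm1 on chr4:156215677-156215976 (plus strand) and the first of the Esrrg starts on chr1:187608756-187609055 (plus strand). Each is printed 5′ to 3′ along the gene, with the matched motif in capitals. In Tfam the capitals are CCGGAAGT, starting 47 bases before the start, a motif held by 3.89% of the 32851 promoters in the table. In Nrf1 and Esrrg they are TATTTATA, starting 98 and 21 bases before the start, held by 1.70% of promoters. The first Nrf1 start and the other Esrrg starts had no match to any of the motifs. In Perm1 they are TGACCTT, the reverse strand of AAGGTCA, starting 202 bases before the start, held by 4.72%.
Tfam: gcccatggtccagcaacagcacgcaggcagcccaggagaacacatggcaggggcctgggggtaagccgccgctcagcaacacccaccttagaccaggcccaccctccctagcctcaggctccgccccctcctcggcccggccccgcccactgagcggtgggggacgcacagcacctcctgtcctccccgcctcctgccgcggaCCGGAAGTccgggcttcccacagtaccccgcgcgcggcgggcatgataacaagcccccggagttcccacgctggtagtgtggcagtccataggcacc
Nrf1: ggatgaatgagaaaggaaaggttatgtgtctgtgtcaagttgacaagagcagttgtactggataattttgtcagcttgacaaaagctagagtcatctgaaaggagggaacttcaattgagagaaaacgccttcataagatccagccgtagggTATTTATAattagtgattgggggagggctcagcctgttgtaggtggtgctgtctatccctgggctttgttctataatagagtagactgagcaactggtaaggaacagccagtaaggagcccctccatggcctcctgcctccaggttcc
Perm1: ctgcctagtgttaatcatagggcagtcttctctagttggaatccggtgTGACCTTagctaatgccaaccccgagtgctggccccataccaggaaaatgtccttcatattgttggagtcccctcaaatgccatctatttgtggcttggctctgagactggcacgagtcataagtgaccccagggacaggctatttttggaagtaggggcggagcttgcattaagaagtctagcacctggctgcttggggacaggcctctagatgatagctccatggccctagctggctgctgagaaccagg
Esrrg: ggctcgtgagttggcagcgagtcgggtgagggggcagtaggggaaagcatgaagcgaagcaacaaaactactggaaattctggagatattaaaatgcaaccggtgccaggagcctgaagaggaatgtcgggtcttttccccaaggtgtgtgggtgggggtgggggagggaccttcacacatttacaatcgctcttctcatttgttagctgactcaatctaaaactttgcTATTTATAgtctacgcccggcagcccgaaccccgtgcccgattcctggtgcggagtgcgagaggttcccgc

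The Esrra promoter held the NRF1 core on the reverse strand 34 bases before the start and CAGCTG 4 bases before it, and the Ppara promoter held the NRF1 core on both strands, overlapping, at 31 and 29 bases before the start. The NRF1 core occurred in 2.71% of all promoters and CAGCTG in 16.3%. CAGCTG was also found at 226 and 175 bases before the start of Ppard and at 235 bases before the second start of Esrrb. The longer ERR site (0.423% of all promoters), the CRE (1.79%) and TAAAAATA (2.72%) had no match in the 14 promoters.

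Depth, estimated from the step that 1 read makes in the RPKM of each gene, was 34800000 to 60700000 reads a library. The estimate takes the smallest common step as 1 read. Even values made up 61.9% of read numbers between 1 and 20, and the scale of the read numbers given here is uncertain. On day 0 Dmpk stood at 203 and 196 RPKM in TKO cells and 146 and 145 RPKM in QKO cells, against 237 and 341 RPKM in WT cells. Of the targeted genes Dmpk, Dmwd and Six5 fell in QKO cells and Six5 in TKO cells. Dmwd stood at 38.2 and 28.7 RPKM in QKO cells, against 64.8 and 81.1 RPKM in WT cells. Six5 stood at 1.59 and 1.36 RPKM in TKO cells and 1.57 and 1.25 RPKM in QKO cells, against 2.26 and 3.39 RPKM in WT cells. Mbnl1 stood at 21.0 and 16.9 RPKM in TKO cells and 12.1 and 17.1 RPKM in QKO cells, against 18.9 and 7.23 RPKM in WT cells. A gene-level value does not check the loss of 1 exon. The second WT library of day 0 stood apart, with an RPKM total of 555791 against 370850 to 428739 in the other 17, and each day 0 call of a regulator is given below with and without it. Myoblast markers were present (Pax7 at 11.7 to 27.6 RPKM on day 0), whereas the adipocyte and Schwann cell lists were below 1 RPKM throughout. Of 7 markers of differentiating muscle all 7 rose in TKO and 6 in QKO cells at day 0, with summed levels of 2772 to 4031 RPKM in TKO and 2115 to 2866 RPKM in QKO cells, against 613.6 to 906.8 RPKM in WT cells. The part of this difference in stage, and of the fibroblast marker Thy1 (9.64 and 7.79 RPKM in TKO, 6.47 and 6.16 RPKM in QKO, 0.09 and 0.02 RPKM in WT cells), in the day 0 results was not tested. Nor was that of other markers that moved with genotype on day 0. Of 6 myoblast markers 3 rose in TKO (Myf5, Myod1 and Des) and 2 in QKO cells. Of 5 proliferation markers 1 fell in QKO cells and 0 were called in TKO cells. Their summed levels were 179 to 279 RPKM in QKO and 290 to 358 RPKM in TKO cells, against 310 to 386 RPKM in WT cells. The immune marker Laptm5 rose in TKO cells (6.47 and 7.75 RPKM, against 1.18 and 1.26 RPKM in WT cells, adjusted p = 0.00242). The fibroblast list's Ly6a rose in QKO cells (85.1 and 108 RPKM, against 56.1 and 59.5 RPKM in WT cells, 0.00929). The smooth muscle list's Acta2 rose in TKO (601 and 568 RPKM, 0.02) and QKO cells (561 and 621 RPKM, 0.0124), against 316 and 418 RPKM in WT cells. Of these lists Ptprc, Adgre1, Csf1r, Cd3e, Pdgfra, Dpt, Dcn, Lum and Myh11 were below 1 RPKM in each group on day 0. Others were not. The immune list's Cd68 had a mean of 2.22 RPKM in TKO and 2.33 RPKM in WT cells. The smooth muscle list's Rgs5 had a mean of 6.82 RPKM in TKO and 4.92 RPKM in WT cells. The 5 endothelial markers summed to 1.16 to 1.20 RPKM in TKO, 1.26 to 1.69 RPKM in QKO and 1.56 to 2.23 RPKM in WT cells. In bulk samples fewer cells of a type and less RNA per cell cannot be told apart.

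The regulators spanned a wide range of levels. Esrra was the most abundant per length, with a lowest, median and highest level of 9.85, 15.1 and 28.4 RPKM over the 18 libraries, and Tfam followed at 8.59, 10.1 and 17.9 RPKM. Ppard (5.39, 8.48 and 11.01 RPKM), Ppargc1b (4.33, 6.42 and 11.7 RPKM) and Nrf1 (4.17, 5.46 and 9.69 RPKM) were intermediate. Ppargc1a (0.712, 1.92 and 3.74 RPKM), Esrrg (0.0119, 1.09 and 2.56 RPKM), Esrrb (0.0542, 1.01 and 3.57 RPKM), Perm1 (0.179, 0.590 and 3.30 RPKM) and Ppara (0.0177, 0.436 and 0.750 RPKM) were low. Esrrg had the widest range, 215-fold between its lowest and highest library, and Esrrb followed at 65.8-fold. The lowest values rest on few reads: 4 for Esrrg, 8 for Ppara, 13 for Esrrb and 26 for Perm1.

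**Figure D1:**
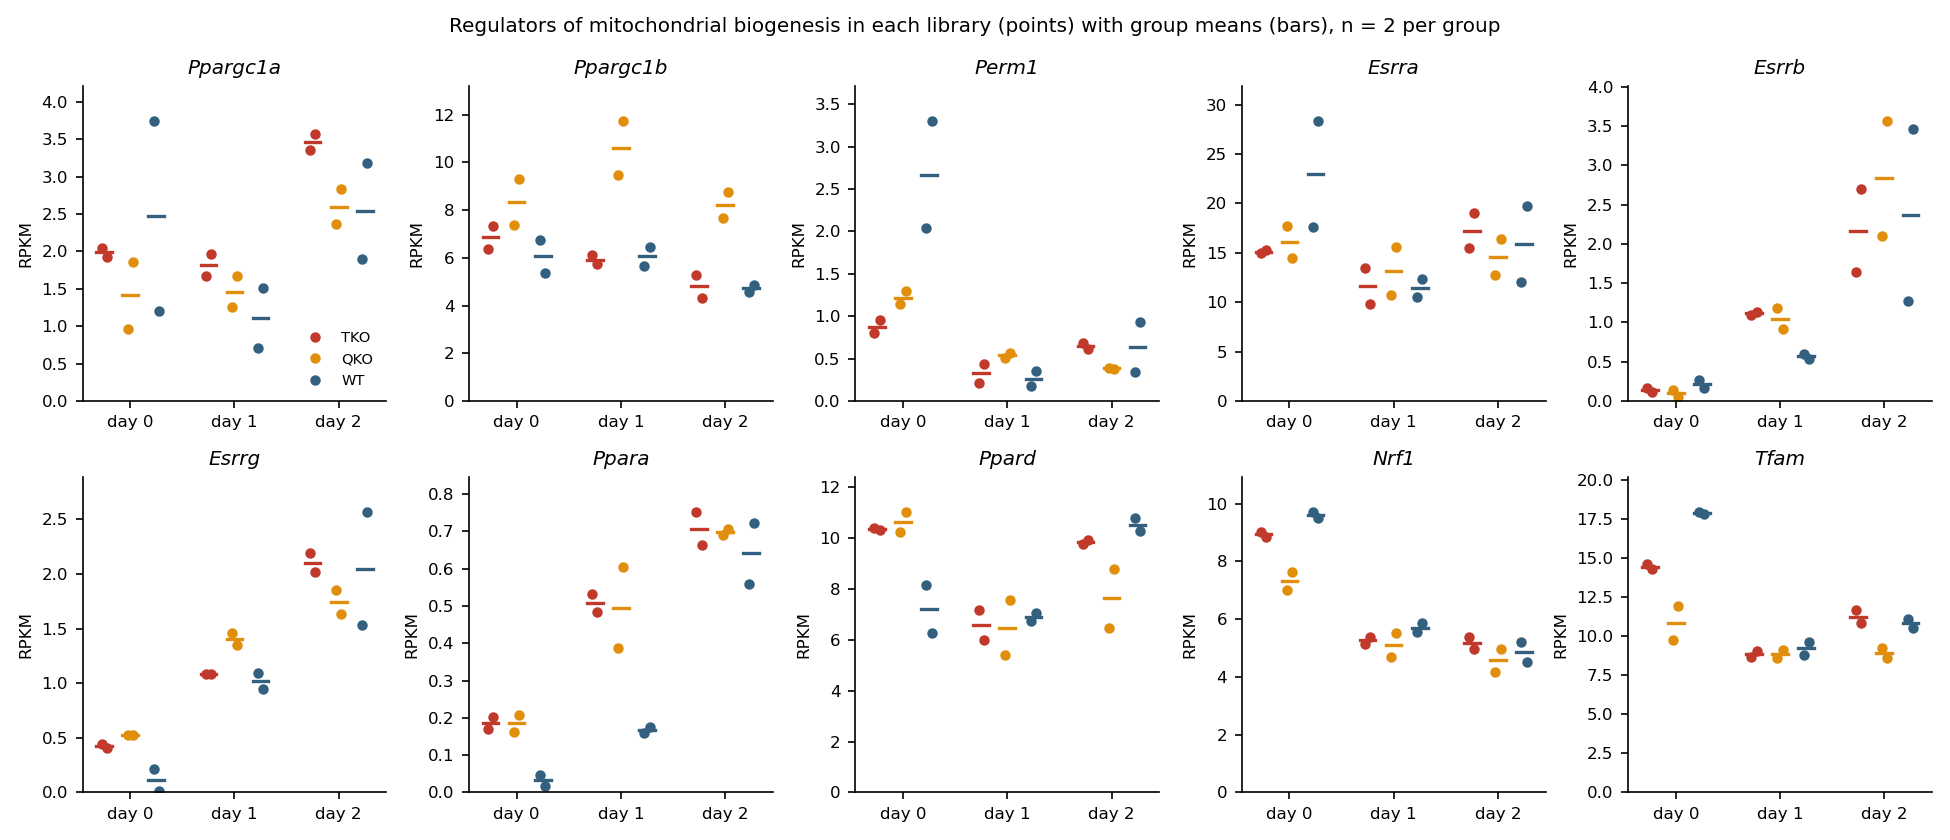
RPKM of each regulator (vertical axis, linear, from 0) on days 0, 1 and 2 in TKO, QKO and WT cells. Points are libraries and bars group means (n = 2). Esrrb and Esrrg are highest on day 2 in all genotypes, Nrf1 is highest on day 0, and the WT points for Perm1 on day 0 (2.04 and 3.30 RPKM) lie above all others.

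Calls between mutant and WT cells were more frequent on day 0 than on days 1 and 2, among the regulators and among all genes tested. Tests were made by limma on log2(RPKM + 1) with 1 fit of all 18 libraries, and a call is an adjusted p under 0.05 over all genes tested. A fold change on this scale understates the change of genes near or below 1 RPKM, so that the ratio of mean RPKM is given too. On day 0, 1 of 9 regulators was called in TKO against WT cells, beside 23.0% of all genes tested (12.8% higher and 10.2% lower). In QKO against WT cells on day 0 it was 5 of 9, beside 35.5% of all genes (17.3% higher and 18.1% lower). On day 1, 0 of 9 were called in TKO against WT cells (2.08% of all genes) and 1 of 9 in QKO against WT cells (2.76%). On day 2, 0 of 9 were called in TKO against WT cells (0.109%) and 0 of 9 in QKO against WT cells (0.345%). At an unadjusted p under 0.05, limma gave 0 regulators in TKO cells on days 1 and 2 and 2 in QKO cells on day 2, and voom on the recovered reads called 0 in these 3 comparisons. Between the mutants, 0 of 9 regulators were called in QKO against TKO cells on day 0 (2.76% of all genes), day 1 (0.252%) and day 2 (0.740%). In these limma gave 1, 1 and 2 regulators at an unadjusted p under 0.05, and voom called 0 on each day. Nothing is read from the day 0 counts about the regulators as a set.

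**Figure D2:**
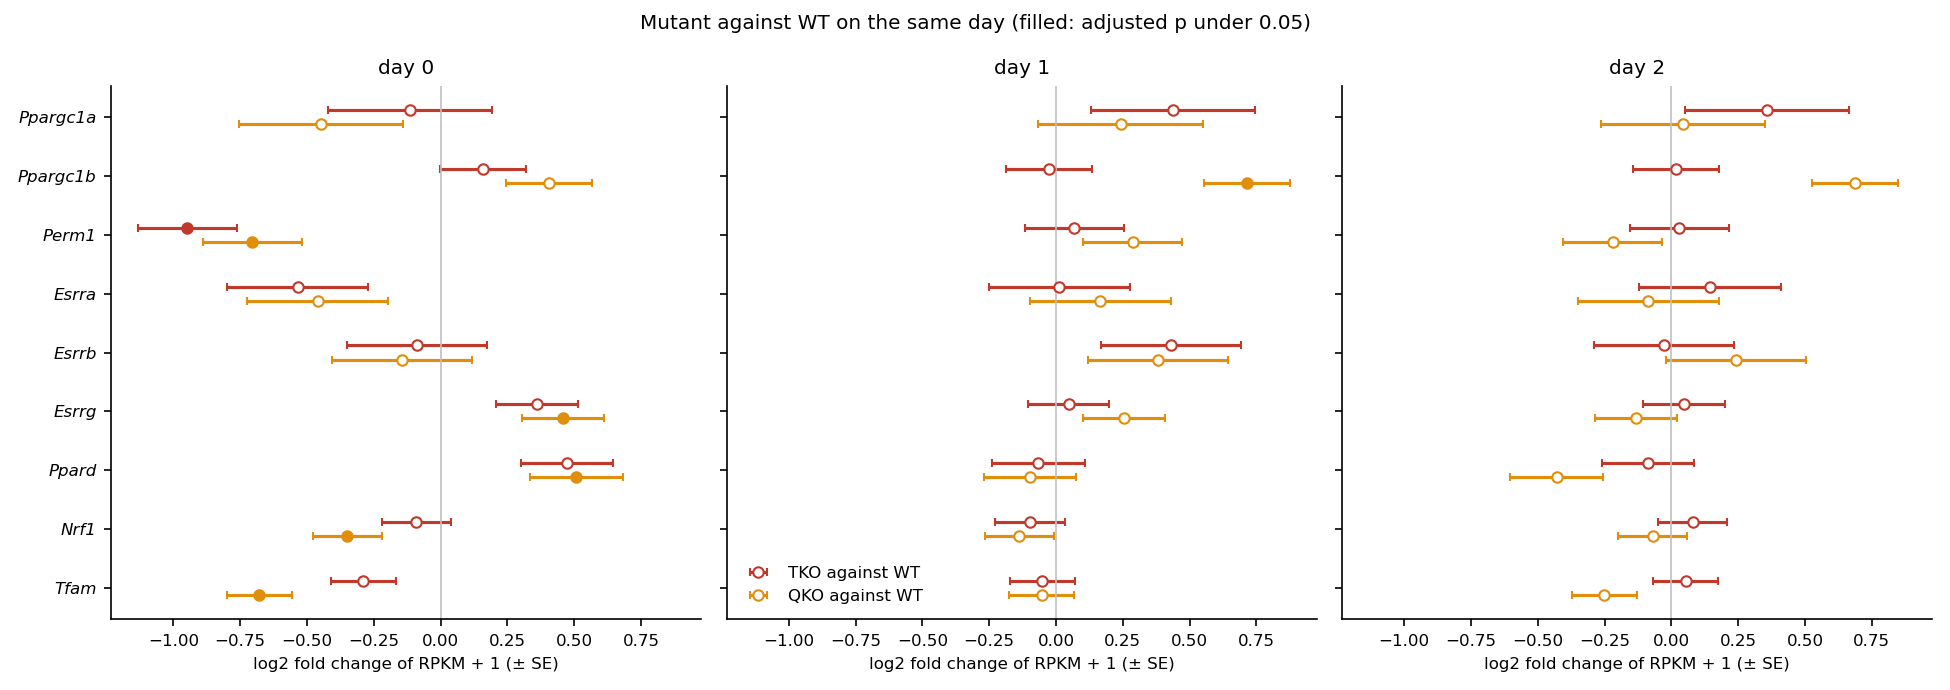
log2 fold change of RPKM + 1 in TKO and QKO cells against WT cells of the same day, by regulator (horizontal axis, bars are the standard error of the fit). Filled points passed an adjusted p of 0.05. The calls are Perm1 in both mutants and Tfam, Nrf1, Esrrg and Ppard in QKO cells on day 0, and Ppargc1b in QKO cells on day 1.

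Differentiation moved the regulators in opposite directions: Esrrb and Esrrg rose in every genotype by day 2 and Nrf1 fell in every genotype, whereas Perm1 and Tfam had their largest falls in WT cells. From day 0 to day 1, 6 of 9 regulators were called in TKO cells (2 up and 4 down, beside 57.9% of all genes called), 5 of 9 in QKO cells (2 up and 3 down, 57.8%) and 5 of 9 in WT cells (1 up and 4 down, 66.6%). For day 2 against day 0, 5 of 9 were called in TKO cells (2 up and 3 down, 59.3%), 5 of 9 in QKO cells (2 up and 3 down, 60.2%) and 6 of 9 in WT cells (3 up and 3 down, 66.7%, with 24.9% of all genes higher and 41.7% lower). For day 2 against day 1, 1 of 9 was called in TKO cells (up, 6.62%), 0 of 9 in QKO cells (3.04%) and 3 of 9 in WT cells (all up, 15.4%). In QKO cells that last comparison had 1 regulator at an unadjusted p under 0.05 by limma and 0 called by voom. These shares are near those of all genes.

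Falls between days depend on the scaling of the libraries. As deposited, the median gene was lower on day 1 than on day 0 by a log2 change of -0.31 in TKO, -0.32 in QKO and -0.34 in WT cells, and on day 2 than on day 0 by -0.21, -0.31 and -0.24. With libraries scaled to the median ratio of genes these medians moved up by 0.16 to 0.27. Of the calls for day 2 against day 0, 64.4% in TKO, 71.3% in QKO and 62.6% in WT cells were lower as deposited, 53.1%, 55.1% and 51.8% after median-ratio scaling, and 47.9%, 48.7% and 50.6% after quantile normalization. For day 1 against day 0 the lower share was 72.7% in TKO, 73.4% in QKO and 69.3% in WT cells as deposited, and 48.1%, 48.6% and 51.2% after quantile normalization. For day 2 against day 1 it was 28.6% in TKO and 32.4% in WT cells as deposited, and 51.4% and 48.4% after quantile normalization. A fall between days of a regulator is therefore read against the median gene of its comparison.

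**Figure D3:**
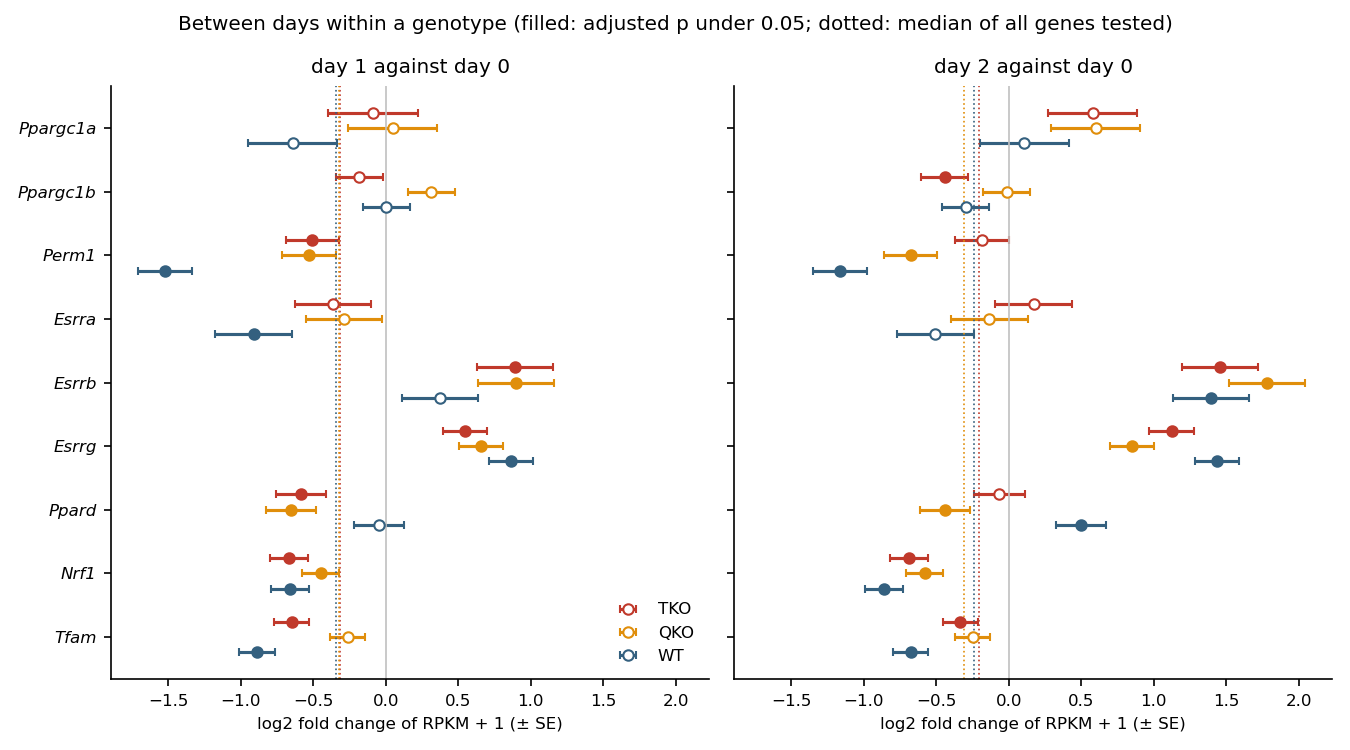
log2 fold change of RPKM + 1 on day 1 (left) and day 2 (right) against day 0, by regulator, in TKO, QKO and WT cells (horizontal axis, bars are the standard error of the fit). Filled points passed an adjusted p of 0.05 and dotted lines mark the median of all genes tested, between -0.34 and -0.21. Esrrb and Esrrg lie right of these lines, and Nrf1, Tfam and Perm1 lie left of them or near them.

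Of the coactivators, Ppargc1a (chr5:51454249-52115853, GRCm38.p6, as for all gene positions here) passed the test in none of the 22 contrasts. Ppargc1a stood on day 0 at 2.05 and 1.93 RPKM in TKO cells and 0.968 and 1.86 RPKM in QKO cells, against 3.74 and 1.21 RPKM in WT cells. The WT libraries bracketed the mutant values other than the lower QKO library. Ppargc1a stood on day 1 at 1.66 and 1.96 RPKM in TKO and 1.25 and 1.67 RPKM in QKO cells, against 0.712 and 1.52 RPKM in WT cells. Ppargc1a stood on day 2 at 3.36 and 3.57 RPKM in TKO and 2.37 and 2.83 RPKM in QKO cells, against 1.90 and 3.18 RPKM in WT cells. Both mutants were thus higher on day 2 than on day 0 with no overlap, by a log2 change of 0.58 ± 0.31 in TKO (SE, adjusted p = 0.121) and 0.60 ± 0.31 in QKO cells (adjusted p = 0.108), neither of which passed. With all libraries kept, both differences passed after quantile normalization (adjusted p = 0.00771 in TKO and 0.00278 in QKO cells) and removal of a length trend (0.00433 and 0.00277). After median-ratio scaling the QKO difference passed (0.0359) and the TKO difference did not (0.0562). Neither passed with voom or the other pseudocounts. The outcome also moved with the WT day 0 libraries, whose spread is part of the common error. Without the first of them the adjusted p was 0.0379 in TKO and 0.0323 in QKO cells, and without the second 0.0379 and 0.0324. QKO against WT cells on day 0 gave -0.45 (adjusted p = 0.27) with both, 0.10 (0.775) without the first and -1.0 (0.0243) without the second. For day 1 against day 0 in WT cells it was -0.64 (adjusted p = 0.0814), but -1.19 (0.0023) without the second WT day 0 library and -0.92 (0.0492) without the second WT day 1 library. In WT cells day 2 against day 1 was 0.75 (adjusted p = 0.118), which passed without either WT day 0 library (0.0312 each). Day 2 against day 0 was 0.11 (0.774), but 0.66 (0.049) without the first WT day 0 library.

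Ppargc1b (chr18:61291445-61400756) had its highest values in QKO cells, past the test on day 1. Ppargc1b stood on day 1 at 9.49 and 11.7 RPKM in QKO cells and 6.10 and 5.74 RPKM in TKO cells, against 5.67 and 6.45 RPKM in WT cells. The ratio of QKO to WT cells was 1.75 (log2 change 0.71 ± 0.16, adjusted p = 0.0345). Ppargc1b stood on day 2 at 7.69 and 8.75 RPKM in QKO cells and 5.27 and 4.33 RPKM in TKO cells, against 4.56 and 4.87 RPKM in WT cells. Ppargc1b stood on day 0 at 7.39 and 9.32 RPKM in QKO cells and 6.39 and 7.34 RPKM in TKO cells, against 6.75 and 5.37 RPKM in WT cells. On each day both QKO libraries were above the TKO and WT libraries. The QKO difference from WT cells on day 2 (ratio 1.74, 0.69 ± 0.16, adjusted p = 0.088) and on day 0 (ratio 1.38, 0.40 ± 0.16, adjusted p = 0.0656) did not pass. With all libraries kept, that on day 2 passed after quantile normalization (0.77, 0.0443), median-ratio scaling (0.78, 0.0447) and removal of a length trend (0.76, 0.0261). That on day 0 passed after median-ratio scaling (0.45, 0.0314) and removal of a length trend (0.37, 0.0428). Neither passed with voom or the other pseudocounts. Against TKO cells QKO cells gave 0.24 ± 0.16 on day 0 (adjusted p = 0.471), 0.74 ± 0.16 on day 1 (0.125) and 0.67 ± 0.16 on day 2 (0.0697), none of which passed. With a length trend removed the differences from TKO cells passed on day 1 (0.74, 0.0287) and day 2 (0.78, 0.0301). After quantile normalization that on day 2 passed (0.78, 0.0451). In the order of group means QKO day 1 (10.6 RPKM) stood apart from QKO day 0 (8.35 RPKM), which overlapped QKO day 2 (8.22 RPKM). QKO day 2 stood apart from TKO day 0 (6.87 RPKM), which overlapped WT day 0 (6.06 RPKM).

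The Ppargc1b call on day 1 did not hold when 1 library was left out in 7 of 18 cases. The log2 change was 0.85 (adjusted p = 0.0748) without the first QKO day 1 library and 0.57 (0.281) without the second. It was 0.63 (0.247) without the first WT day 1 library and 0.79 (0.126) without the second. It stayed at 0.71 with an adjusted p of 0.0574 without either TKO day 1 library and 0.0501 without the second TKO day 0 library. In the other direction, the day 2 difference from WT cells passed without the first (0.0308) or second (0.0313) WT day 0 library, as did QKO against TKO cells on day 1 (0.0384 and 0.0377) and on day 2 (0.0256 and 0.0254). On day 0 QKO against WT cells passed without the first WT library (0.55, adjusted p = 0.0211) or the first QKO library (0.55, 0.0488), and gave 0.26 (0.315) without the second WT library. On day 1 against day 0 in QKO cells Ppargc1b did not pass in the main fit, though the libraries did not overlap. It rose past the test after median-ratio scaling (0.58, adjusted p = 0.00461), quantile normalization (0.74, 0.0007) and removal of a length trend (0.65, 0.000791). In WT cells that comparison passed after quantile normalization (0.41, 0.0228) and removal of a length trend (0.35, 0.0325), not after median-ratio scaling (0.29, 0.103). Between days Ppargc1b fell in TKO cells on day 2 against day 0 (-0.44 ± 0.16, ratio 0.699, adjusted p = 0.0303). That fall gave -0.27 (0.132) after median-ratio scaling, -0.53 (0.0506) and -0.35 (0.167) without the first and second TKO day 0 library, and -0.32 (0.203) without the second TKO day 2 library. In WT cells the same comparison was -0.30 (adjusted p = 0.118), and -0.44 (0.0446) without the second WT day 0 library.

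Perm1 (chr4:156203262-156221307), the muscle coregulator, had the largest difference between mutant and WT cells among these regulators on the log2(RPKM + 1) scale. Perm1 stood on day 0 at 0.797 and 0.955 RPKM in TKO cells and 1.14 and 1.29 RPKM in QKO cells, against 2.04 and 3.30 RPKM in WT cells. All 4 mutant libraries were below both WT libraries. Perm1 fell by 0.95 ± 0.19 in TKO (ratio 0.328, adjusted p = 0.00254) and by 0.71 ± 0.19 in QKO cells (ratio 0.456, adjusted p = 0.0105). Without the second WT day 0 library the difference was -0.70 in TKO (adjusted p = 0.0333) and -0.45 in QKO cells (0.114). Without the first it was -1.20 (0.000391) and -0.96 (0.00143). Without the first QKO day 0 library the QKO value was -0.66 (0.0556). In a fit of only the 4 libraries compared the adjusted p was 0.0871 in TKO and 0.148 in QKO cells. The QKO call was also lost with a pseudocount of 0.1 (-1.035, adjusted p = 0.0627) and in a fit of only the day 0 libraries (-0.71, 0.0692).

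By day 1 the differences in Perm1 were no longer past the test. It stood at 0.214 and 0.438 RPKM in TKO and 0.507 and 0.569 RPKM in QKO cells, against 0.179 and 0.348 RPKM in WT cells. Perm1 stood on day 2 at 0.685 and 0.611 RPKM in TKO and 0.391 and 0.381 RPKM in QKO cells, against 0.345 and 0.936 RPKM in WT cells. In WT cells Perm1 fell by 1.52 ± 0.19 on the log2 scale on day 1 against day 0 (ratio 0.0985, adjusted p = 7.65e-06) and by 1.16 ± 0.19 on day 2 against day 0 (ratio 0.240, adjusted p = 8.53e-05), far past the median gene. In TKO cells it fell by 0.51 ± 0.19 on day 1 against day 0 (ratio 0.372, adjusted p = 0.0313) and had -0.19 ± 0.19 on day 2 (0.402). In QKO cells it fell by 0.53 ± 0.19 on day 1 (ratio 0.441, adjusted p = 0.0254) and by 0.68 ± 0.19 on day 2 (ratio 0.317, adjusted p = 0.00617). The change from day 0 differed between genotypes by the test of the difference. The TKO difference from WT cells was -0.95 on day 0 and 0.07 on day 1, a change of 1.01 ± 0.26 (adjusted p = 0.0277). The QKO difference was -0.71 on day 0 and 0.29 on day 1, a change of 0.99 ± 0.26 (0.0296). On day 2 the TKO difference was 0.03, a change of 0.98 ± 0.26 (0.0343).

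Of such changes in the mutant difference, 1 of 9 regulators was called in TKO cells on day 1 (9.34% of all genes) and 1 of 9 on day 2 (8.52%). In QKO cells it was 2 of 9 on day 1 (11.0%) and 1 of 9 on day 2 (12.7%). The day 1 calls of Perm1 in TKO and QKO cells were lost with a pseudocount of 0.1 (adjusted p = 0.089 in TKO and 0.0563 in QKO cells), and with voom (0.196 and 0.079). They were also lost without the second WT day 0 library (0.76, 0.0929 in TKO and 0.74, 0.0909 in QKO cells). The other libraries whose removal ended the TKO call were TKO day 0 first (0.95, 0.0885) and second (1.08, 0.0697), TKO day 1 second (0.89, 0.122) and WT day 1 first (0.92, 0.108) and second (1.11, 0.0547). For the QKO call they were QKO day 0 first (0.94, 0.0877), QKO day 1 first (1.02, 0.0667) and second (0.96, 0.0934), and WT day 1 first (0.90, 0.11) and second (1.09, 0.0539). The TKO value on day 2 was lost without the first or second TKO day 0 library (0.92, 0.102 and 1.04, 0.0892) or the second WT day 0 library (0.73, 0.118). It was also lost without the first or second TKO day 2 library (0.95, 0.116 and 1.01, 0.0875) or the first WT day 2 library (0.71, 0.108). It was lost too with a pseudocount of 0.1 (1.61, 0.107) or 0.5 (1.24, 0.0503), after median-ratio scaling (0.90, 0.0508), with voom (1.75, 0.115) and in a fit of only the libraries compared (0.98, 0.186). The QKO value on day 2 passed without the first WT day 0 library (0.74, 0.036). The fall of Perm1 on day 1 in TKO cells was lost without the first or second TKO day 0 library (-0.57, 0.0687 and -0.44, 0.135), or the first TKO day 1 library (-0.38, 0.192). That in QKO cells was lost without the first or second QKO day 0 library (-0.58, 0.0554 and -0.48, 0.103) or the first or second QKO day 1 library (-0.50, 0.106 and -0.56, 0.0664). Both were lost after median-ratio scaling (-0.39, 0.0919 in TKO and -0.39, 0.0897 in QKO cells). In WT cells day 2 against day 1 was 0.36 (0.217), and 0.62 (0.0471) without the first WT day 2 library.

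Among the ERR genes Esrrb and Esrrg rose by day 2 in every genotype, whereas Esrra had no called rise. Esrra (chr19:6910977-6922048) encodes the main ERR partner of PGC-1α on respiratory genes and shares 52 bases with Trmt112. It stood on day 0 at 15.0 and 15.3 RPKM in TKO and 17.7 and 14.5 RPKM in QKO cells, against 17.6 and 28.4 RPKM in WT cells. The TKO libraries were below both WT libraries, but the WT libraries lay far apart. Neither TKO (-0.53 ± 0.26, ratio 0.659, adjusted p = 0.154) nor QKO cells (-0.46 ± 0.26, ratio 0.699, adjusted p = 0.187) passed. Without the first WT library they gave -0.86 (0.0251) and -0.79 (0.0347), and without the second -0.21 (0.722) and -0.13 (0.782). On day 1 Esrra stood at 13.5 and 9.85 RPKM in TKO and 10.7 and 15.6 RPKM in QKO cells, against 10.6 and 12.3 RPKM in WT cells. Esrra stood on day 2 at 15.5 and 19.0 RPKM in TKO and 12.8 and 16.4 RPKM in QKO cells, against 12.0 and 19.7 RPKM in WT cells. All genotypes overlapped on both days. The only call was a fall in WT cells on day 1 against day 0 (-0.91 ± 0.26, ratio 0.498, adjusted p = 0.00783). It gave -0.59 (0.0562) after median-ratio scaling, -0.58 (0.0921) without the second WT day 0 library and -0.81 (0.0562) without the first WT day 1 library. For day 2 against day 0 in WT cells Esrra had -0.51 (adjusted p = 0.105), and -0.84 without the first WT day 0 library (0.02) or the second WT day 2 library (0.0246).

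Esrrb (chr12:86361117-86521628), an ERR known from pluripotent cells and oxidative tissues, was near its lowest in expanding cells and increased with differentiation. Esrrb stood on day 0 at 0.168 and 0.116 RPKM in TKO and 0.141 and 0.0542 RPKM in QKO cells, against 0.270 and 0.158 RPKM in WT cells. Esrrb stood on day 1 at 1.096 and 1.13 RPKM in TKO and 1.18 and 0.921 RPKM in QKO cells, against 0.600 and 0.538 RPKM in WT cells. Esrrb stood on day 2 at 1.64 and 2.70 RPKM in TKO and 2.10 and 3.57 RPKM in QKO cells, against 1.27 and 3.46 RPKM in WT cells. The days did not overlap in any genotype. Esrrb rose on day 2 against day 0 by 1.45 ± 0.26 in TKO (ratio 15.3, adjusted p = 0.000327), 1.78 ± 0.26 in QKO (ratio 29.1, adjusted p = 5.52e-05) and 1.39 ± 0.26 in WT cells (ratio 11.1, adjusted p = 0.000351). These 3 calls held under every alternative run. By day 1 it rose in TKO (0.89 ± 0.26, ratio 7.87, adjusted p = 0.0102) and QKO cells (0.90 ± 0.26, ratio 10.8, adjusted p = 0.00948), whereas WT cells had 0.37 ± 0.26 (ratio 2.66, adjusted p = 0.226). On day 1 all 4 mutant libraries were above the WT libraries, with a ratio of 1.96 in TKO (0.43 ± 0.26, adjusted p = 0.541) and 1.84 in QKO cells (0.38 ± 0.26, adjusted p = 0.452). Neither passed. The QKO rise on day 1 gave 0.84 (0.052) without the second QKO day 0 library and 0.81 (0.0653) without the first QKO day 1 library. In WT cells Esrrb rose on day 2 against day 1 (1.02 ± 0.26, ratio 4.16, adjusted p = 0.0195). The value was 1.05 (0.0866) and 0.99 (0.111) without the first and second WT day 1 library and 0.53 (0.206) without the second WT day 2 library. In QKO cells 0.88 (0.0927) passed without the first or second WT day 2 library (0.0176 and 0.0175).

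Esrrg (chr1:187608510-188214885), an ERR of slow oxidative fibers, rose in every genotype as well. Esrrg stood on day 0 at 0.442 and 0.409 RPKM in TKO and 0.528 and 0.522 RPKM in QKO cells, against 0.218 and 0.0119 RPKM in WT cells, the last of which was 4 reads. Esrrg stood on day 1 at 1.084 and 1.09 RPKM in TKO and 1.46 and 1.35 RPKM in QKO cells, against 1.09 and 0.949 RPKM in WT cells. Esrrg stood on day 2 at 2.19 and 2.02 RPKM in TKO and 1.86 and 1.63 RPKM in QKO cells, against 1.54 and 2.56 RPKM in WT cells. Each day was above the last in each genotype with no overlap. Esrrg rose on day 2 against day 0 by 1.12 ± 0.15 in TKO (ratio 4.95, adjusted p = 3.03e-05), 0.85 ± 0.15 in QKO (ratio 3.33, adjusted p = 0.000313) and 1.44 ± 0.15 in WT cells (ratio 17.9, adjusted p = 1.97e-06). By day 1 it rose by 0.55 ± 0.15 (adjusted p = 0.00745), 0.66 ± 0.15 (0.00226) and 0.86 ± 0.15 (0.000224) in TKO, QKO and WT cells. All 6 of these calls held under every alternative run. On day 2 against day 1 it rose in TKO (0.57 ± 0.15, adjusted p = 0.0408) and WT cells (0.57 ± 0.15, adjusted p = 0.0234). The TKO call was lost without any 1 of the TKO libraries, the QKO libraries of days 1 and 2 or the WT libraries of day 1, with an adjusted p of 0.0525 to 0.229. The WT call was lost without the first or second WT day 1 library (0.62, 0.08 and 0.52, 0.143) or the second WT day 2 library (0.33, 0.236).

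On day 0 both mutants had higher Esrrg values than WT cells, with no overlap. The difference passed in QKO cells (0.46 ± 0.15, ratio 4.57, adjusted p = 0.0327) and not in TKO cells (0.36 ± 0.15, ratio 3.71, adjusted p = 0.10). The QKO call was lost in a fit of only the 4 libraries compared (adjusted p = 0.118) and with a length trend removed (0.26, 0.204). Without the second WT library the values were 0.32 in QKO (0.209) and 0.23 in TKO cells (0.468), and without the first 0.59 (0.0132) and 0.49 (0.034). The QKO call was also lost without the first or second QKO day 0 library (0.0942 and 0.0929), and after median-ratio scaling (0.43, 0.0519) or quantile normalization (0.20, 0.358). The TKO difference passed with a pseudocount of 0.1 (1.48, 0.015), with voom (2.97, 0.0199) and without the first or second WT day 2 library (0.0475 and 0.0469). The QKO difference on day 2 less that on day 0 passed with a pseudocount of 0.1 (-1.91, 0.0391), with voom (-3.45, 0.0286), without the first WT day 0 library (-0.72, 0.0257) or the first WT day 2 library (-0.84, 0.0161).

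Of the PPAR genes, Ppara (chr15:85734910-85806851), the receptor of fatty acid oxidation in liver and muscle, stayed below 1 RPKM in all 18 libraries and was left out of the main test. Ppara stood on day 0 at 0.171 and 0.202 RPKM in TKO and 0.162 and 0.208 RPKM in QKO cells, against 0.0480 and 0.0177 RPKM in WT cells. Ppara stood on day 1 at 0.532 and 0.484 RPKM in TKO and 0.387 and 0.604 RPKM in QKO cells, against 0.158 and 0.176 RPKM in WT cells. Ppara stood on day 2 at 0.750 and 0.664 RPKM in TKO and 0.689 and 0.707 RPKM in QKO cells, against 0.560 and 0.723 RPKM in WT cells. All 4 mutant libraries were above the WT libraries on days 0 and 1, and the genotypes overlapped on day 2. In a fit without the filter Ppara rose on day 1 in TKO (0.37 ± 0.07, ratio 3.05, adjusted p = 0.0365) and QKO (0.35 ± 0.07, ratio 2.97, adjusted p = 0.0385) against WT cells. On day 0 it had 0.20 ± 0.07 in TKO (ratio 5.67, adjusted p = 0.0765) and 0.20 ± 0.07 in QKO cells (ratio 5.63, adjusted p = 0.0612). In that fit it rose on day 2 against day 0 in TKO (0.52 ± 0.07, ratio 3.80, adjusted p = 0.000104), QKO (0.52 ± 0.07, ratio 3.78, adjusted p = 0.000105) and WT cells (0.67 ± 0.07, ratio 19.5, adjusted p = 1.07e-05).

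Ppard (chr17:28232754-28301469), the PPAR most active in muscle, was higher in both mutants than in WT cells on day 0 and not on the later days. In the main fit only the QKO difference passed. Ppard stood on day 0 at 10.4 and 10.3 RPKM in TKO and 10.2 and 11.01 RPKM in QKO cells, against 8.17 and 6.28 RPKM in WT cells. Both mutants were above both WT libraries. On day 1 the genotypes overlapped, at 7.19 and 5.98 RPKM in TKO and 5.39 and 7.56 RPKM in QKO cells, against 6.75 and 7.07 RPKM in WT cells. Ppard stood on day 2 at 9.76 and 9.94 RPKM in TKO and 6.47 and 8.79 RPKM in QKO cells, against 10.8 and 10.3 RPKM in WT cells. WT cells were then the highest. On day 0 QKO cells were higher than WT cells by 0.51 ± 0.17 (ratio 1.47, adjusted p = 0.0357) and TKO cells had 0.47 ± 0.17 (ratio 1.43, adjusted p = 0.0631). The QKO call was lost in a fit of only the libraries compared (adjusted p = 0.289). The TKO difference passed after median-ratio scaling (0.48, 0.0368), quantile normalization (0.43, 0.0387) and removal of a length trend (0.46, 0.0277). It did not pass with voom or the other pseudocounts. The QKO difference on day 2 less that on day 0 was -0.94 ± 0.24 (adjusted p = 0.0248). It fell on day 1 against day 0 in TKO (-0.59 ± 0.17, ratio 0.636, adjusted p = 0.0104) and QKO cells (-0.65 ± 0.17, ratio 0.609, adjusted p = 0.00547), with -0.05 ± 0.17 in WT cells (0.828). On day 2 against day 0 it fell in QKO cells (-0.44 ± 0.17, ratio 0.718, adjusted p = 0.0403), rose in WT cells (0.50 ± 0.17, ratio 1.46, adjusted p = 0.0214) and had -0.06 ± 0.17 in TKO cells (0.764). The WT rise on day 2 against day 1 (0.54 ± 0.17, adjusted p = 0.0499) lay at the threshold. It was lost without any 1 of the TKO libraries, the QKO libraries of day 0 or the WT libraries of days 1 and 2 (0.0567 to 0.199).

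Most calls of Ppard rested on single libraries. The QKO difference on day 0 was 0.34 (adjusted p = 0.221) without the second WT day 0 library, and 0.67 (0.00995) without the first. It was 0.56 (0.0769) and 0.46 (0.136) without the first and second QKO day 0 library, and 0.51 (0.0504) without either TKO day 2 library. The TKO difference was 0.64 (0.0147) without the first WT library and 0.31 (0.351) without the second. The change of the QKO difference by day 2 was -0.77 (0.0661) without the second WT day 0 library and -0.98 (0.0553) and -0.89 (0.0529) without the first and second QKO day 0 library. It was -0.74 (0.104) without the first QKO day 2 library and -0.91 (0.0602) without the first WT day 2 library. Without the first WT day 0 library the changes of the TKO difference also passed (-0.71, 0.0426 on day 1 and -0.73, 0.0357 on day 2), as did that of QKO cells on day 1 (-0.77, 0.0293). The falls on day 1 were lost without the first TKO day 0 library (-0.58, 0.0522), the second TKO day 1 library (-0.47, 0.093) and the first QKO day 1 library (-0.44, 0.0835). That of TKO cells was also lost after median-ratio scaling (-0.31, 0.10). The WT rise by day 2 was lost without the second WT day 0 library (0.33, 0.144) and the first or second WT day 2 library (0.46, 0.0852 and 0.53, 0.0546). The QKO fall by day 2 was lost after median-ratio scaling (-0.17, 0.348), quantile normalization (-0.03, 0.844) and removal of a length trend (-0.10, 0.571), beside a median of all genes of -0.31 in the main fit of that comparison. It was also lost without either library of TKO days 0 and 2, QKO day 0 or WT day 1 or the first of QKO day 2 (0.0516 to 0.325). In TKO cells day 2 against day 1 (0.52, 0.0922) passed without the first or second WT day 0 library (0.0444 and 0.0443).

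Nrf1 (chr6:30047985-30153458), the factor that binds the promoters of many respiratory chain genes, fell with differentiation in every genotype. Nrf1 stood on day 0 at 9.02 and 8.86 RPKM in TKO and 7.02 and 7.62 RPKM in QKO cells, against 9.69 and 9.49 RPKM in WT cells. Nrf1 stood on day 1 at 5.13 and 5.39 RPKM in TKO and 4.68 and 5.53 RPKM in QKO cells, against 5.55 and 5.85 RPKM in WT cells. Nrf1 stood on day 2 at 5.38 and 4.96 RPKM in TKO and 4.17 and 4.98 RPKM in QKO cells, against 5.19 and 4.50 RPKM in WT cells. Every day 0 library was above every library of the later days. On day 2 against day 0 Nrf1 fell by 0.69 ± 0.13 in TKO (ratio 0.578, adjusted p = 0.000451), 0.58 ± 0.13 in QKO (ratio 0.625, adjusted p = 0.00157) and 0.86 ± 0.13 in WT cells (ratio 0.505, adjusted p = 5.15e-05). These were larger falls than those of the median gene. After median-ratio scaling they were -0.51 in TKO, -0.33 in QKO and -0.63 in WT cells (adjusted p = 0.0017, 0.0252 and 0.0003). After quantile normalization the QKO value was -0.11 (0.409). On day 1 against day 0 it fell by 0.67 ± 0.13 in TKO (adjusted p = 0.000609), 0.45 ± 0.13 in QKO (0.00897) and 0.66 ± 0.13 in WT cells (0.000499), and quantile normalization left -0.23 in TKO, 0.046 in QKO and -0.24 in WT cells, none past the test. The QKO fall by day 1 was also lost without the second QKO day 0 library (-0.40, 0.0508) and the first QKO day 1 library (-0.35, 0.0879). On day 0 QKO cells were below WT cells (-0.35 ± 0.13, ratio 0.763, adjusted p = 0.0498) and TKO cells had -0.09 ± 0.13 (0.626). In a fit of only the libraries compared the QKO difference had an adjusted p of 0.428. The QKO call was at the threshold and was lost without any 1 library other than those of QKO day 2 (0.0516 to 0.174), with -0.36 (0.0947) without the second WT day 0 library.

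Tfam (chr10:71225468-71238328) fell in TKO and WT cells and started lower in QKO cells. Tfam stood on day 0 at 14.6 and 14.3 RPKM in TKO and 9.73 and 12.0 RPKM in QKO cells, against 17.9 and 17.8 RPKM in WT cells. The 3 genotypes did not overlap, with WT cells the highest and QKO cells the lowest. Against WT cells Tfam fell by 0.68 ± 0.12 in QKO cells (ratio 0.607, adjusted p = 0.00118). That value was the same without the first (0.0012) or second (0.00447) WT library. In a fit of only the 4 libraries compared its adjusted p was 0.175. TKO cells had -0.29 ± 0.12 (ratio 0.808, adjusted p = 0.097) against WT cells, and the same without the second WT library (0.195). QKO cells had -0.39 ± 0.12 against TKO cells (ratio 0.751, adjusted p = 0.101). This passed without the second QKO day 0 library (-0.53, 0.0357) and without either WT day 0 library (0.0463 each). Tfam stood on day 1 at 8.68 and 9.03 RPKM in TKO and 8.59 and 9.09 RPKM in QKO cells, against 8.81 and 9.61 RPKM in WT cells, with all genotypes overlapping. Tfam stood on day 2 at 11.7 and 10.8 RPKM in TKO and 9.25 and 8.60 RPKM in QKO cells, against 11.1 and 10.5 RPKM in WT cells. QKO cells were the lowest on day 2, at a ratio of 0.826 to WT (-0.25 ± 0.12, adjusted p = 0.38) and 0.793 to TKO cells (-0.30 ± 0.12, adjusted p = 0.259), which did not pass.

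The fall of Tfam by day 1 differed between QKO and WT cells. On day 1 against day 0 it fell by 0.65 ± 0.12 in TKO (ratio 0.613, adjusted p = 0.000454) and by 0.89 ± 0.12 in WT cells (ratio 0.515, adjusted p = 2.22e-05). QKO cells had -0.26 ± 0.12 (ratio 0.815, adjusted p = 0.0798). The QKO difference from WT cells on day 1 less that on day 0 was 0.63 ± 0.17 (adjusted p = 0.0341). It was lost without any 1 of the TKO libraries, the QKO or WT libraries of day 1 or the first of QKO day 0 (adjusted p 0.0513 to 0.122), with 0.49 (0.11) without the first QKO day 0 library and 0.57 (0.122) without the first WT day 1 library. The counterpart on day 2 passed without the second QKO day 0 library (0.56, 0.0443), and the QKO fall without the first QKO day 0 library on day 1 (-0.40, 0.0234) and day 2 (-0.39, 0.0253). On day 2 against day 0 Tfam fell in TKO (-0.33 ± 0.12, ratio 0.779, adjusted p = 0.0292) and WT cells (-0.68 ± 0.12, ratio 0.605, adjusted p = 0.000234). QKO cells had -0.25 ± 0.12 (0.0913). The WT value was -0.44 (0.0062) after median-ratio scaling. The TKO call was lost under that scaling (-0.15, 0.301) and without the first or second TKO day 0 library (-0.32, 0.12 and -0.35, 0.0826) or the first or second TKO day 2 library (-0.39, 0.0604 and -0.28, 0.159).

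In all, 48 of the 198 regulator and contrast pairs were called, and 16 of the 48 calls held under every alternative run. These were the rises of Esrrb by day 2 in all genotypes and by day 1 in TKO cells, the rises of Esrrg by days 1 and 2 in all genotypes, the falls of Nrf1 by day 2 in TKO and WT cells, and the falls of Tfam and of Perm1 by days 1 and 2 in WT cells. None of the 16 was a difference between mutant and WT cells. The share of all genes called in each comparison is given above, and nothing is read from the 48 calls about the regulators as a set. How many calls of all genes held under every alternative was not counted.

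The genes whose level over the 18 libraries was most like that of a regulator were taken by Pearson correlation of log2(RPKM + 1) among genes with a mean of at least 5 RPKM. The points share library and day, so that the values are a description. Esrrb was most like Lrtm1 (r = 0.975), Pla2g16 (0.963) and Cmbl (0.951), and Esrrg most like Rbfox1 (0.970), Cmya5 (0.965) and Tef (0.964). Nrf1 was most like Khsrp (0.982), Raver1 (0.982) and Sf3a3 (0.980), Tfam most like Cisd2 (0.964), Pbdc1 (0.957) and Nbn (0.955), and Perm1 most like Rgl2 (0.954), Ncln (0.948) and Nlgn2 (0.944). Ppargc1b was most like Kmt2d (0.959), Rsc1a1 (0.926) and Ddi2 (0.908), and Esrra most like Brms1 (0.907), Txndc17 (0.887) and Mrpl14 (0.883). Ppargc1a (Kpna3 0.856, Ints9 0.849, Ppm1a 0.836) and Ppard (Wipi1 0.868, Tmem230 0.864, Slc44a1 0.860) had the lowest top values. Between the regulators themselves Esrrg and Nrf1 moved in opposite directions over the libraries (r = -0.924), and Esrrb with Esrrg (0.890) and Nrf1 with Tfam (0.848) moved together.

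The network around the regulators was described from lists of partners, upstream enzymes and downstream genes. For each list on day 0 the count is read beside 12.8% of all genes higher and 10.2% lower in TKO, and 17.3% higher and 18.1% lower in QKO cells. In both mutants on day 0 the slow and oxidative muscle list and the fatty acid list held rises and no falls. Of 10 slow and oxidative muscle genes tested, 4 rose in TKO (median log2 change 0.90) and 4 in QKO cells (0.73), beside a median of all genes of 0.01 and -0.01. Myoglobin (Mb) stood at 34.6 and 46.0 RPKM in TKO and 56.5 and 20.9 RPKM in QKO cells, against 8.31 and 7.18 RPKM in WT cells. Tnni1, slow troponin I, stood at 326 and 509 RPKM in TKO and 567 and 242 RPKM in QKO cells, against 127 and 93.0 RPKM in WT cells. Of 24 genes of fatty acid uptake and oxidation 8 rose in TKO (median 0.23) and 6 in QKO cells (0.23). Fabp3, the muscle fatty acid carrier, stood at 4.85 and 6.43 RPKM in TKO and 8.69 and 4.17 RPKM in QKO cells, against 2.18 and 2.09 RPKM in WT cells. Cpt1a, the entry enzyme of oxidation, rose in QKO cells (45.0 and 39.1 RPKM, against 22.7 and 17.95 RPKM in WT cells). Of 8 PPAR targets tested 0 were called in TKO cells (limma, with 1 at an unadjusted p under 0.05, and 0 by voom). In QKO cells 2 rose, the thioesterase genes Acot1 (25.2 and 9.39 RPKM, against 6.19 and 4.75 RPKM in WT cells) and Acot2 (6.94 and 7.72 RPKM, against 4.88 and 4.01 RPKM in WT cells).

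Genes of mitochondrial dynamics and import held falls and no rises in the mutants. Of 16 tested, 3 fell in TKO (median -0.07) and 10 in QKO cells (-0.48). Hspe1, a mitochondrial chaperonin, stood at 125 and 132 RPKM in TKO and 117 and 125 RPKM in QKO cells, against 166 and 380 RPKM in WT cells. Timm17a, of the inner membrane import channel, stood at 62.4 and 54.7 RPKM in QKO cells, against 85.4 and 123 RPKM in WT cells. Of 19 tricarboxylic acid cycle genes 6 fell in QKO cells, with Idh3a at 63.1 and 69.4 RPKM, against 93.9 and 95.9 RPKM in WT cells. Of 21 genes of mitochondrial DNA transcription and maintenance 3 rose and 2 fell in TKO cells and 2 rose and 5 fell in QKO cells, near the 23.0% of all genes called in TKO and 35.5% in QKO cells. Lonp1, the matrix protease, fell in both (40.8 and 36.3 RPKM in TKO and 37.1 and 37.2 RPKM in QKO cells, against 51.5 and 55.2 RPKM in WT cells). Top1mt, the mitochondrial topoisomerase, rose in both (5.75 and 6.36 RPKM in TKO and 5.17 and 6.18 RPKM in QKO cells, against 3.19 and 3.32 RPKM in WT cells). Of 23 upstream enzymes and repressors 5 rose and 2 fell in TKO cells and 5 rose and 4 fell in QKO cells, also near these shares. The AMPK subunit gene Prkab2 rose in both (8.52 and 8.46 RPKM in TKO and 10.2 and 9.85 RPKM in QKO cells, against 5.18 and 3.03 RPKM in WT cells). Of 14 partners 2 rose and 1 fell in TKO and 2 rose in QKO cells. The coactivator gene Ncoa1 stood at 14.3 and 15.6 RPKM in TKO and 10.0 and 16.2 RPKM in QKO cells, against 8.99 and 4.15 RPKM in WT cells. The number of all genes called on day 0 changed with the WT library left out. The leave-out counts below are therefore not read as results about the lists. The list counts above, the slow and oxidative list aside, changed without the WT library that stood apart. Without it the import list had 0 falls in TKO and 5 in QKO cells, the cycle list 0 calls in QKO cells, the fatty acid list 6 rises in TKO and 5 in QKO cells, and the partners 0 calls in TKO cells. The slow and oxidative list kept a count of 4 rises in each mutant. Without the first WT library the import list had 4 rises and 8 falls in TKO cells and the cycle list 10 falls in QKO cells.

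**Figure D4:**
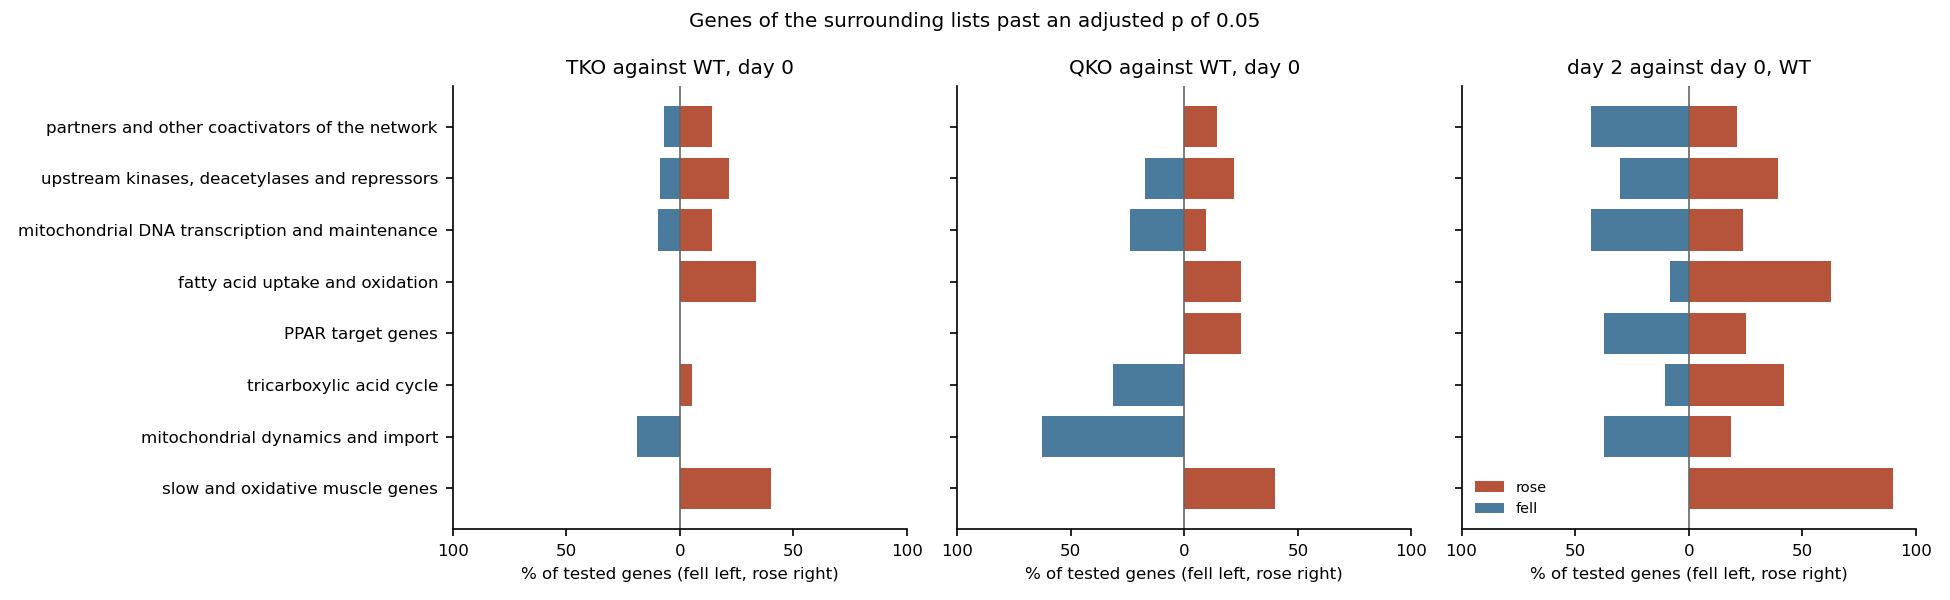
Share of tested genes of each list past an adjusted p of 0.05 (horizontal axis, percent, falls to the left and rises to the right of 0) in TKO against WT cells on day 0, QKO against WT cells on day 0, and day 2 against day 0 in WT cells. The import list has 10 of 16 genes down in QKO cells and the slow and oxidative list 9 of 10 genes up on day 2 in WT cells.

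With differentiation of WT cells the lists are read beside 24.9% of all genes higher and 41.7% lower on day 2 against day 0. On day 2 against day 0, 9 of 10 slow and oxidative genes rose (median 3.73), 15 of 24 fatty acid genes rose and 2 fell (0.85), and 8 of 19 cycle genes rose and 2 fell (0.29), beside a median of all genes of -0.24. Fabp3 stood at 116 and 97.3 RPKM on day 2, against 2.18 and 2.09 RPKM on day 0. Pdha1, of pyruvate dehydrogenase, stood at 195 and 176 RPKM, against 72.8 and 62.1 RPKM. Cpt1a fell, at 3.14 and 2.44 RPKM on day 2, against 22.7 and 17.95 RPKM on day 0. Of 21 genes of mitochondrial DNA maintenance 5 rose and 9 fell (-0.21), with the polymerase subunit gene Polg2 at 1.53 and 2.15 RPKM on day 2, against 9.30 and 13.8 RPKM on day 0. Of 14 partners 3 rose and 6 fell (-0.25). Pprc1, the third member of the PGC-1 family, stood at 10.4 and 11.7 RPKM on day 2, against 33.1 and 21.9 RPKM on day 0. Tfeb stood at 4.82 and 7.67 RPKM, against 0.740 and 1.30 RPKM. Of 23 upstream enzymes 9 rose and 7 fell (0.24). The AMPK genes Prkag3 (105 and 111 RPKM, against 2.75 and 2.50 RPKM on day 0) and Prkaa2 (10.5 and 19.8 RPKM, against 1.01 and 0.169 RPKM) had the largest rises named in this list. Of 16 dynamics and import genes 3 rose and 6 fell (-0.28). Mfn2, for mitochondrial fusion, stood at 36.7 and 37.9 RPKM on day 2, against 21.7 and 17.9 RPKM on day 0. Of 8 PPAR targets 2 rose and 3 fell (-0.26). After median-ratio scaling 14 cycle genes rose and 1 fell. Summed differentiating muscle markers in WT cells were 17890 to 18080 RPKM on day 2, against 613.6 to 906.8 RPKM on day 0, and the 5 proliferation markers fell. Differentiation and leaving the cell cycle cannot be told apart in these comparisons.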

How the data were processed

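The authors trimmed the reads, aligned them with HISAT2 2.0.5 to protein-coding genes of GRCm38.p5 and quantified genes with StringTie, and deposited RPKM values for 18 libraries in 1 table. Whether counting used strand is not given in the sources used here. Of rows sharing a symbol 1401 were left out, which left 20612 genes, and 11890 had at least 1 RPKM in at least 2 libraries. Tests were made on log2(RPKM + 1) in limma 3.58.1 (R 4.3.3) with trend and robust settings, 1 mean for each of 9 groups and 9 residual degrees of freedom before moderation, adjusted by Benjamini-Hochberg over all genes tested, with no replicate block. Standard errors are those of the fit and tests are two-sided. Whole reads were recovered from the RPKM steps, at 34800000 to 60700000 reads a library, where 1 read on 1 kb is 0.0165 to 0.0288 RPKM. For 99.92% of 16548 rows they lay within 0.02 of whole numbers plus an allowance for the rounding of RPKM. That allowance grows with gene length. The recovered reads were tested with voom as an alternative. The method was tested on simulated data. Other alternatives were pseudocounts, filters, quantile and median-ratio scaling, a length trend (loess), fewer libraries, every row of repeated symbols, a replicate block and leaving out each library. Lists, other than the regulators, name up to 4 genes per comparison: the 2 largest rises and 2 largest falls among calls with a mean of at least 5 RPKM in the higher group and no overlap of libraries, of which some are printed. For likeness, the 3 highest correlations among genes with a mean of at least 5 RPKM and no clone or model name are given. Members and lists were chosen with earlier results of these data known. Tables were made with Python 3.11.15, NumPy 2.4.6 and pandas 2.3.3, and figures with Matplotlib 3.10.9. There were 0 per-sample columns that were not used. A result on the tricarboxylic acid cycle list in TKO cells is not reported here.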

Additional observations from a re-analysis of the deposited data

Results flagged for a closer look

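In 5 cases the difference between a mutant and WT cells on a later day differed from that on day 0 by the test of the difference itself. For Perm1 the TKO difference from WT cells (log2) was -0.95 on day 0, 0.07 on day 1 and 0.03 on day 2, a change of 1.01 ± 0.26 (SE) by day 1 (adjusted p = 0.0277) and of 0.98 ± 0.26 by day 2 (0.0343). The QKO difference in Perm1 was -0.71 on day 0 and 0.29 on day 1, a change of 0.99 ± 0.26 (0.0296). For Tfam the QKO difference was -0.68 on day 0 and -0.05 on day 1, a change of 0.63 ± 0.17 (0.0341). For Ppard it was 0.51 on day 0 and -0.43 on day 2, a change of -0.94 ± 0.24 (0.0248). Each rests on 2 libraries a group and on the WT libraries of day 0, and each lost its call under several of the alternatives.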

How the results depend on the processing

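Of 198 regulator and contrast pairs 48 were called, and 16 of the 48 calls held under every alternative. The counts below are not set beside those of all genes under the same setting. A general change in calls and a change in the regulators therefore cannot be told apart. The 7 calls of mutants against WT cells became 3 with only genes of a mean of at least 5 RPKM (which leaves 5 regulators), 2 with only the libraries compared, 2 with only the libraries of that day or genotype and 11 with the length trend removed, and ranged from 4 to 12 with 1 library left out. The 0 calls of QKO against TKO cells became 1 after quantile normalization and 2 once the length trend was taken out, with 0 to 3 when 1 library was left out. The 36 calls between days became 16 with a mean of at least 5 RPKM, and 29 to 42 with 1 library left out. Directions reversed after quantile normalization for Nrf1 on day 1 against day 0 in QKO cells (0.046, main value -0.45), Ppargc1b on day 2 against day 0 in QKO cells (0.41, main value -0.02, and 0.34 with the length trend removed) and Ppard on day 1 against day 0 in WT cells (0.36, main value -0.05). Deviations of samples with the same replicate number had r from -0.385 to 0.550 over 36 pairs of groups (median 0.039, 10 over 0.1). Some groups thus deviated together, but with this median the numbers were not taken as pairs. With the replicate block there were 6 calls against WT, 0 between the mutants and 34 between days, and 3 calls were lost: Nrf1 in QKO cells on day 0 (adjusted p = 0.0576), Esrrg on day 2 against day 1 in TKO cells (0.0505) and Ppard on day 2 against day 1 in WT cells (0.0594). With 2 libraries a group a missed threshold does not show that levels were alike, and Ppara, Esrrb, Esrrg and Perm1 rest on few reads on some days. The cause of the changes with processing was not tested.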
